A study of Mus musculus with 27 samples.

Results

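The genotype by crRNA interaction asks whether a crRNA against human C9ORF72 changed the transcriptome of sorted mouse cortical nuclei by a different amount in mice that carry the human gene than in mice that do not. It was formed as the difference between crRNA-13 and the non-targeted (NTG) crRNA in C9-BACexp mice, minus the same difference in their nontransgenic littermates. A negative value therefore means that the step from NTG to crRNA-13 was lower in C9-BACexp mice, and a positive value that it was higher. The contrast used 20 of the 27 libraries of the series, of which 12 came from C9-BACexp mice and 8 from nontransgenic mice. All values are log2 differences unless another scale is named.

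C9-BACexp mice carry a bacterial artificial chromosome with the whole human C9ORF72 gene and an expanded G4C2 repeat on a C57BL/6J background, and the nontransgenic mice are C57BL/6J littermates. The contrast held 6 C9-BACexp mice that received RfxCas13d-N2V8 with crRNA-13 (S13 in the sample labels), 6 C9-BACexp mice with the NTG crRNA, 3 nontransgenic mice with crRNA-13 and 5 nontransgenic mice with NTG. The effector was delivered by the PHP.eB AAV variant from a CAG promoter, and the labels name RfxCas13d for the NTG mice where the methods give RfxCas13d-N2V8. Every mouse, including the 3 C9-BACexp and 4 nontransgenic mice that received no effector, was injected in the motor cortex at 6 weeks of age with a second vector that encodes EGFP-KASH, a fluorescent protein anchored in the nuclear envelope, and 2 months later its EGFP-KASH+ nuclei were sorted for total RNA-seq. Each library is 1 mouse, so that sex, litter and injection vary within groups, and the sort keeps nuclei of any cell that took up the vector. In these bulk libraries, fewer nuclei of a cell type and less RNA per nucleus cannot be told apart.

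Cas13d is an RNA-guided nuclease that cleaves the transcript to which its crRNA binds and can then cut bystander RNA in the same cell. crRNA-13 matches exon 1a of human C9ORF72, which transcript variants V1 and V3 contain and V2 lacks, and nontransgenic mice carry no human C9ORF72 gene. Interferon-stimulated genes are switched on when a cell senses foreign nucleic acid or receives interferon, and the interferon-stimulated response element, with its repeated GAAA core, is the sequence to which STAT and IRF complexes bind in their promoters. Mature oligodendrocytes make myelin, and cortical projection neurons of the upper and deep layers express separate sets of transcription factors.

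The letters GAAANNGAAA, searched on both strands, were found in the promoters of 29 of the 52 interferon-stimulated genes with a RefSeq promoter (55.8%) and of 1079 of all 27025 genes (3.99%), where a promoter is the stretch from 250 bases before to 50 bases after a gene's start. Counted by promoter, the shares were 32 of 66 (48.5%) and 1131 of 32851 (3.44%). Part of 4 of these promoters, taken in order of the genes' mean level, is shown because this list had the median farthest from 0 of all lists, given further on. Each window was placed in GRCm39 by an exact match at 1 place and is written on the strand of its gene, with the match, or its reverse complement, in capitals. A match is a description of the letters and not a bound site.
Stat2, chr10:128106117-128106194, plus strand: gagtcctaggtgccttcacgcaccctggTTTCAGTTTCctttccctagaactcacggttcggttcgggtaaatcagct
Ddx60, chr8:62381028-62381117, plus strand: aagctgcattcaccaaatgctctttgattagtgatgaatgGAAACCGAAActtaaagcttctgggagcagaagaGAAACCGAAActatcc
Ifit1bl1, chr19:34579423-34579512, minus strand: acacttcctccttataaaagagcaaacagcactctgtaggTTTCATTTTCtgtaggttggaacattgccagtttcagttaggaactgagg
Trim30a, chr7:104114387-104114476, minus strand: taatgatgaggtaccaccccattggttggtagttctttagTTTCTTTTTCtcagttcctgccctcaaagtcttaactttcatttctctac

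Counts per gene summed to between 21784030 and 36777972 in the 20 libraries, and Spearman correlations between libraries lay between 0.913 and 0.957. Several libraries stood apart before any contrast was formed. Nontransgenic crRNA-13 mouse 5 had the highest mean level of the interferon-stimulated genes, and it also held 12 counts of human V2 and 4 of human V1, whereas the other 7 nontransgenic libraries of the contrast held none. C9-BACexp crRNA-13 mouse 2 had the highest EGFP-KASH level (110 CPM) and the highest interferon level of its group, C9-BACexp crRNA-13 mouse 1 had the highest oligodendrocyte level and the fewest genes with a count (22177), and C9-BACexp NTG mouse 6 had the highest level of striatal neuron genes. Xist, a transcript of the inactive X chromosome, exceeded 100 CPM in 4 of 6 C9-BACexp crRNA-13, 3 of 6 C9-BACexp NTG, 2 of 3 nontransgenic crRNA-13 and 2 of 5 nontransgenic NTG libraries. Results that rest on these libraries are given with and without them.

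Across the transcriptome, almost no single gene passed the test for the interaction. With 4 estimated factors of unwanted variation in the model, edgeR's quasi-likelihood test called 1 of 21768 genes (0.00459%) at an adjusted p under 0.05 and a fold of over 1.2, and 2277 genes (10.5%) had an unadjusted p under 0.05, of which 1339 were lower (6.15%) and 938 higher (4.31%). Without the factors it called 0 genes (0%), with a smallest adjusted p of 0.151, and 924 genes (4.24%) had an unadjusted p under 0.05, 421 lower (1.93%) and 503 higher (2.31%). limma-trend called 0 genes with and without the factors, while DESeq2 called 240 with them and 21 without. The count also moved when single mice were left out, to 80 without C9-BACexp crRNA-13 mouse 1, to 34, 15 and 32 without nontransgenic NTG mice 3, 4 and 5, to 16 and 17 without nontransgenic crRNA-13 mice 2 and 5, and to 2 without C9-BACexp NTG mouse 3 or 6 or C9-BACexp crRNA-13 mouse 2, 3 or 4. With nontransgenic crRNA-13 mouse 5 and C9-BACexp crRNA-13 mouse 2 both left out it was 310.

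The called gene was Gm14296, a predicted gene at chr2:176584302-176619602 (GRCm39, minus strand), inside a cluster of closely related zinc finger genes among which reads can be split. It was at 85.7 CPM in nontransgenic crRNA-13 mouse 5, 53.6 in C9-BACexp NTG mouse 4, 54.1 in C9-BACexp NTG mouse 5 and 91.9 in nontransgenic EGFP-KASH mouse 4, and it had a count of 0 in the other libraries. The call (adjusted p = 0.0198, edgeR) thus rested on 3 of the 20 libraries, and its fitted fold is not given because most libraries of all 4 groups were at 0.

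For most expressed genes the contrast was measured to within a few fold. Among the 16001 genes whose mean reached 1 CPM, the 95% interval reached a median of 0.47 to either side, and the interval lay inside a 1.5-fold difference either way for 6586 genes (41.2%), inside 2-fold for 10671 (66.7%) and inside 4-fold for 14199 (88.7%). Without the factors it reached 0.67, and 3894 (24.3%), 9120 (57%) and 13739 (85.9%) genes lay inside these limits. The lower and upper quartiles of the estimates were -0.20 and 0.19, closer to 0 than the bounds of a typical interval.

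The genes with the smallest p in each direction had adjusted p between 0.111 and 0.119 with edgeR and did not pass. All 10 passed under DESeq2 with 4 factors (adjusted p from 4.2e-06 to 0.00405) and in the edgeR fit without nontransgenic crRNA-13 mouse 5 and C9-BACexp crRNA-13 mouse 2 (0.0152 to 0.0428), and each passed in at least 1 fit without a single mouse. Among the 5 lower ones was Sorbs3 (chr14:70417916-70449438, minus strand), which encodes vinexin, a scaffold protein of cell adhesion sites. It was at 6.99, 11.8, 7.51, 16 and 24.4 CPM in nontransgenic NTG mice and at 34.2, 16 and 18.5 with crRNA-13. In C9-BACexp mice it ran from 26.4 through a median of 29.7 to 48.1 CPM with NTG and from 16.5 through 19.5 to 55.9 with crRNA-13. The nontransgenic groups overlapped through NTG mouse 5, and in 4 of the 6 C9-BACexp crRNA-13 mice the level was below that of every C9-BACexp NTG mouse. The interaction was -1.24 (SE 0.23, 95% interval -1.72 to -0.76, adjusted p = 0.117, edgeR), and -0.99 without the factors. Sorbs3 passed under DESeq2 with 4 factors (adjusted p = 0.00038) and without nontransgenic NTG mouse 3, 4 or 5, nontransgenic crRNA-13 mouse 2 or 5 or C9-BACexp crRNA-13 mouse 1, with adjusted p from 0.012 to 0.0462 in these 6 fits.

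Chdh (chr14:29730856-29763372, plus strand), the mitochondrial enzyme that oxidises choline, had a similar arrangement. It was at 6.2, 5.31, 4.65, 9.71 and 8.41 CPM in nontransgenic NTG mice, at 14.9, 8.96 and 13.2 with crRNA-13, at a median of 19.1 (lowest 16.3, highest 34.6) in C9-BACexp NTG mice and at 13.5 (6.86 to 54.1) in C9-BACexp crRNA-13 mice. The highest of the 20 values belonged to C9-BACexp crRNA-13 mouse 1, and without that mouse the interaction of Chdh moved from -1.29 (SE 0.27) to -1.65. Cyp27a1 (chr1:74752314-74777056, plus strand), a sterol 27-hydroxylase, was at 1.96 to 5.75 CPM in nontransgenic NTG, 4.24 to 6.16 in nontransgenic crRNA-13, 5.62 to 13.4 in C9-BACexp NTG and 3.06 to 10.8 in C9-BACexp crRNA-13 mice, and its interaction was -1.27 (SE 0.26). All 3 genes were higher in C9-BACexp than in nontransgenic mice under NTG, by 1.37 (Sorbs3), 1.65 (Chdh) and 1.39 (Cyp27a1), and by 0.13, 0.36 and 0.12 under crRNA-13.

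The other lower genes rested on few libraries. Rad51b, which takes part in DNA repair by recombination, was at 82.8 CPM in nontransgenic crRNA-13 mouse 2, at 7.79 and 18.3 in the other mice of that group and at 1.24 to 4.02 in nontransgenic NTG mice, and its interaction of -5.74 (SE 1.14) became -3.76 without mouse 2. Cldn34c2, a member of the claudin family, was at 7.41, 13.9 and 0.381 CPM in the nontransgenic crRNA-13 mice and at no more than 1.94 CPM in the other 17 libraries, with 0 in many, so that its fitted fold is not given.

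Among the 5 higher genes was Gpc6 (chr14:117162727-118216940, plus strand), a cell surface proteoglycan of the glypican family. It was at 695, 623, 693, 499 and 349 CPM in nontransgenic NTG mice and at 413, 363 and 335 with crRNA-13. In C9-BACexp mice it ran from 220 through a median of 261 to 293 CPM with NTG and from 114 through 360 to 425 with crRNA-13. Under NTG the genotypes did not overlap, and under crRNA-13 all 3 nontransgenic values lay within the C9-BACexp range. The interaction was 0.74 (SE 0.16, 95% interval 0.41 to 1.08, adjusted p = 0.119, edgeR) and rose to 1.01 without C9-BACexp crRNA-13 mouse 1, which had the lowest value (adjusted p = 0.0126, edgeR).

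Nrsn1 (chr13:25436020-25454485, minus strand), which encodes the neuronal membrane protein neurensin, was at 19.4, 23.8, 13.9, 18.5 and 34.2 CPM in nontransgenic NTG mice and at 14.2, 10.6 and 17.4 with crRNA-13, against medians of 16.4 (13.5 to 18.4) and 17.4 (15.4 to 26.1) in C9-BACexp mice with NTG and crRNA-13. Its interaction was 0.76 (SE 0.16). Fbxo33, an F-box substrate adaptor of ubiquitin ligases, was at 17.5 to 30.0 CPM in nontransgenic NTG, 19.2 to 24 in nontransgenic crRNA-13, 13.8 to 21.3 in C9-BACexp NTG and 15.9 to 31.5 in C9-BACexp crRNA-13 mice, with an interaction of 0.70 (SE 0.15). Oaz2, an antizyme that limits polyamine synthesis, had the narrowest interval of the 10 genes, from 0.28 to 0.73 around 0.50. Sync, which encodes the intermediate filament protein syncoilin, was at 1.87 to 3.02 CPM in nontransgenic NTG mice and at 0.6, 1.03 and 0.518 in the nontransgenic crRNA-13 mice, without overlap, and at 1.03 to 3.03 and 0.806 to 5.04 in C9-BACexp NTG and crRNA-13 mice, with an interaction of 2.27 (SE 0.46). The groups overlapped for Nrsn1 and Fbxo33 in each genotype, and for Oaz2 in C9-BACexp mice only, as it was at 20.7 to 31.4 CPM in nontransgenic NTG and 16 to 19.5 in nontransgenic crRNA-13 mice.

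**Figure D1:**
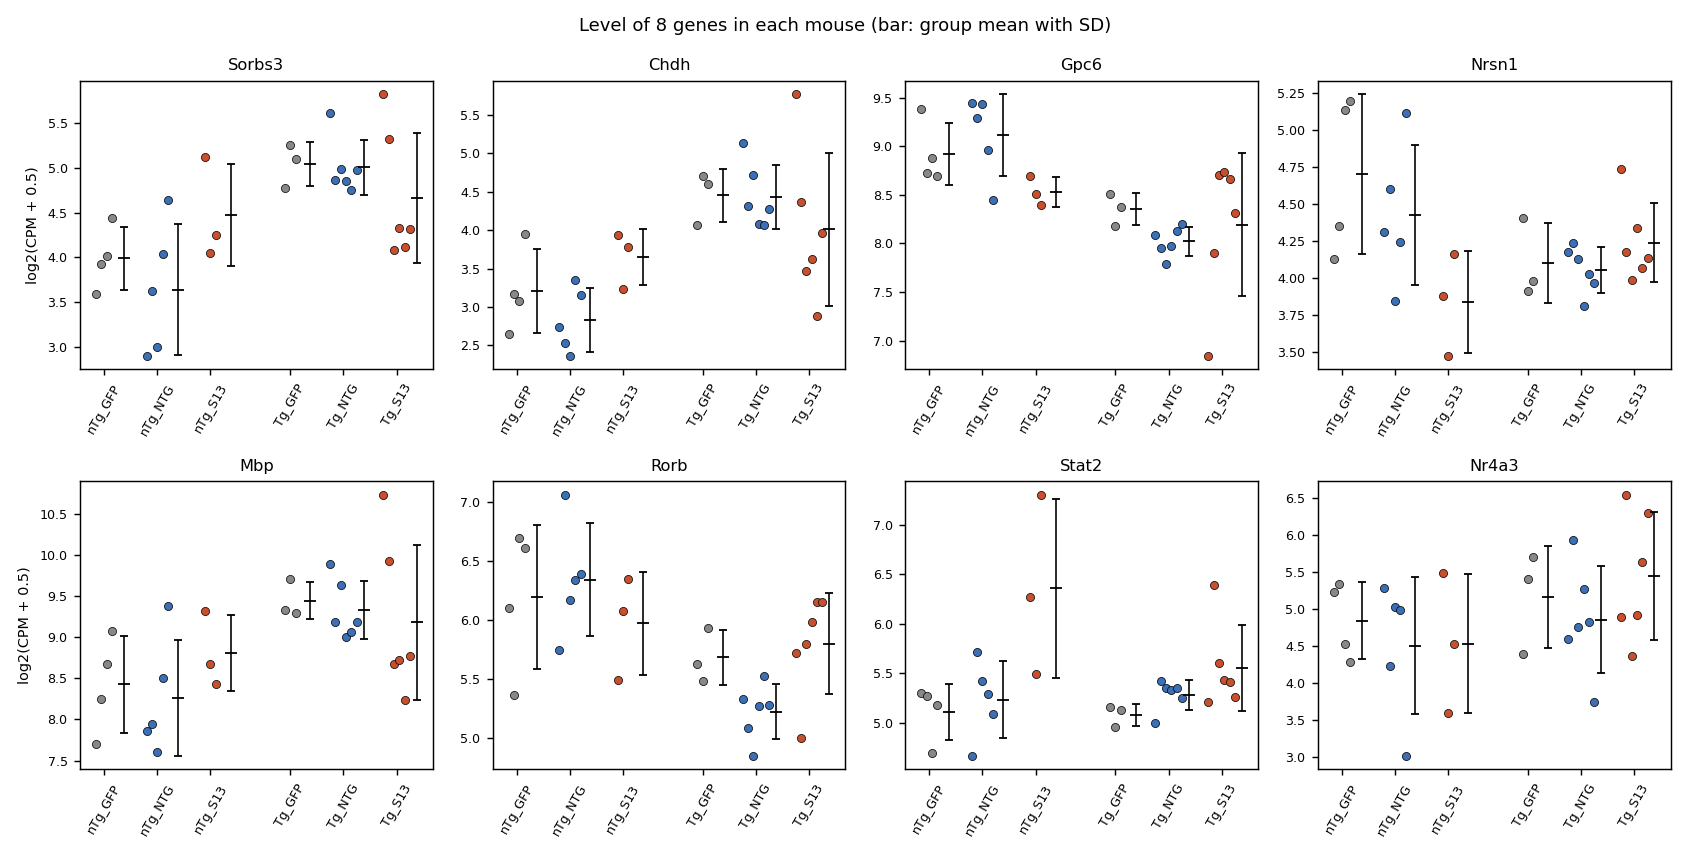
Level of 8 genes in each mouse (vertical axis, log2(CPM + 0.5)) in nontransgenic (nTg) and C9-BACexp (Tg) mice, with EGFP-KASH only in grey (GFP), NTG in blue and crRNA-13 (S13) in red, and the bar at each group's mean with its SD. Gpc6 did not overlap between the genotypes under NTG and did under crRNA-13, and C9-BACexp crRNA-13 mouse 1 had the highest Mbp, Sorbs3 and Chdh and the lowest Gpc6 of its group.

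Genes at an unadjusted p under 0.05 for the interaction more often had the larger crRNA difference in nontransgenic mice, of which 3 received crRNA-13. Of the 1000 genes at 1 CPM or more that were lower at an unadjusted p under 0.05, 751 (75.1%) had the larger crRNA difference in nontransgenic mice and 873 (87.3%) had crRNA differences of opposite sign in the genotypes. Their median crRNA difference was -0.16 in C9-BACexp and 0.42 in nontransgenic mice. Of the 810 higher genes, 583 (72%) had the larger difference in nontransgenic mice and 729 (90%) had opposite signs, with medians of 0.18 and -0.31. Over all 16001 genes 9255 (57.8%) had the larger difference in nontransgenic mice. Since the interaction is the difference of these values, such genes had to be unlike between the genotypes, and the counts are a description of how they were chosen. The nontransgenic difference also rests on fewer mice, so that it varies more by sampling. The shares therefore cannot tell in which genotype a response lies. Across genes, which are not independent replicates, Pearson's correlation of the crRNA differences of the genotypes was -0.13 with the factors and 0.07 without them, where no library is shared between the axes.

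**Figure D2:**
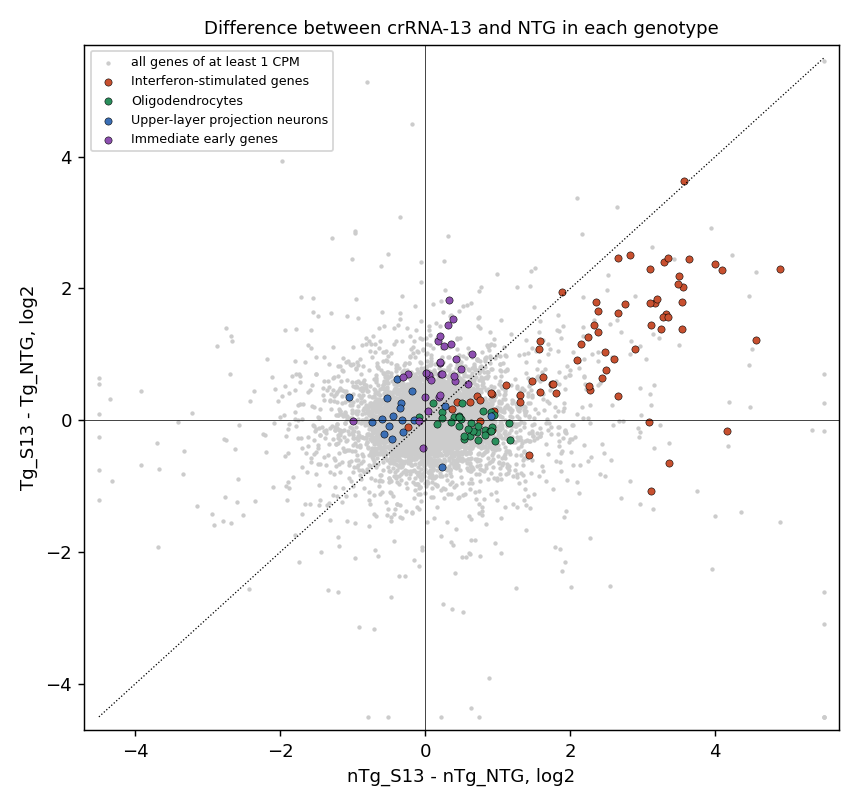
Difference between crRNA-13 and NTG for each gene with at least 1 CPM, in nontransgenic mice (horizontal axis, log2) and in C9-BACexp mice (vertical axis, log2), with values beyond the axes drawn at the edge. Over all genes Pearson's correlation is -0.13 and 57.8% of genes have the larger difference in nontransgenic mice, while interferon-stimulated genes (red) lie to the upper right and mostly below the dotted line of equal differences.

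The components differed in how many genes passed. crRNA-13 against NTG called 78 genes (0.358%) in nontransgenic mice, 68 higher (0.312%) and 10 lower, and 1 gene (0.00459%) in C9-BACexp mice, again Gm14296 (2 without C9-BACexp crRNA-13 mouse 2). C9-BACexp against nontransgenic mice called 2225 genes (10.2%) under NTG and 34 (0.156%) under crRNA-13. Without the factors crRNA-13 against NTG called 0 genes in either genotype, and the comparison of genotypes called 74 under NTG and 7 under crRNA-13. The size of these counts thus depended on the factors. A count past a threshold in one genotype and not in the other is not a test of their difference, which is the interaction itself. The nontransgenic crRNA count was 0 without nontransgenic NTG mouse 1, 49 without nontransgenic crRNA-13 mouse 1 or C9-BACexp NTG mouse 4, and 144, 169, 174, 219 and 344 without nontransgenic NTG mouse 4, nontransgenic crRNA-13 mouse 2, nontransgenic NTG mouse 5, nontransgenic crRNA-13 mouse 5 and nontransgenic NTG mouse 3. The count under crRNA-13 between genotypes was 327, 95 and 14 without nontransgenic crRNA-13 mouse 1, 2 and 5, 134, 196, 19 and 78 without C9-BACexp crRNA-13 mouse 1, 4, 6 and 7, 52, 73 and 68 without nontransgenic NTG mouse 1, 3 and 5, and 13 and 54 without C9-BACexp NTG mouse 2 and 6.

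Interferon-stimulated genes had the lowest interaction of the gene lists. Of 72 listed genes 69 were tested, 66 of them had a value below 0, and 18 (26.1%) were lower at an unadjusted p under 0.05, against 6.15% of all genes. None was called by edgeR with no mouse left out or by DESeq2 with 4 factors, and 1 (Oas3) was called without nontransgenic crRNA-13 mouse 2. The median interaction was -1.18 with the factors and -1.10 without, against -0.028 and 0.02 over all genes. Without the factors 5 members were lower at an unadjusted p under 0.05, against 1.93% of all genes. The list was higher with crRNA-13 than with NTG in both genotypes, by a median of 1.08 in C9-BACexp and 2.48 in nontransgenic mice, and 61 of the 69 genes were above 0 in both. In nontransgenic mice 20 of the 69 passed the test for a rise, against 0.312% of all genes, a count that belongs to a comparison with 0 calls without nontransgenic NTG mouse 1.

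The mean level of the tested members on the log2(CPM + 0.5) scale was 0.81, 2.57, 0.89, 1.28 and 1.2 in nontransgenic NTG mice and 3.08, 1.83 and 4.64 with crRNA-13. In C9-BACexp mice it ran from 0.83 through 1.00 to 1.06 with NTG and from 0.99 through 1.41 to 2.94 with crRNA-13. The nontransgenic groups overlapped because NTG mouse 2 was above crRNA-13 mouse 2, and 1 C9-BACexp crRNA-13 mouse, mouse 7, lay within the range of the C9-BACexp NTG mice. Summed over the tested members, CPM ran from 248 to 713 in nontransgenic NTG, from 464 to 3422 in nontransgenic crRNA-13, from 251 to 289 in C9-BACexp NTG and from 275 to 1117 in C9-BACexp crRNA-13 mice. The list median of the interaction was -0.35 without nontransgenic crRNA-13 mouse 5, and 0.032 without that mouse and without the factors. With C9-BACexp crRNA-13 mouse 2 also left out and the factors kept, it was -0.84, and without nontransgenic crRNA-13 mouse 2 it was -1.88.

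Stat2 (chr10:128106352-128128735, plus strand), the transcription factor subunit whose promoter is shown above, was at 24.8, 52.0, 42.5, 38.7 and 33.6 CPM in nontransgenic NTG mice and at 76.6, 44.7 and 158 with crRNA-13. In C9-BACexp mice it ran from 31.5 through 40.1 to 42.6 CPM with NTG and from 36.5 through 42.5 to 83.5 with crRNA-13. A single nontransgenic mouse and a single C9-BACexp mouse with crRNA-13 were each far above the rest of their group. The interaction was -1.03 (SE 0.33, 95% interval -1.71 to -0.34, adjusted p = 0.254, edgeR), and -0.41 without nontransgenic crRNA-13 mouse 5.

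Rnf213, a large interferon-induced ubiquitin ligase, was at 6.63, 76.9, 18.4, 21.0 and 12.4 CPM in nontransgenic NTG mice, at 158, 57.1 and 668 with crRNA-13, and at medians of 14.3 (12.5 to 23.3) and 35.8 (13.5 to 192) in C9-BACexp mice with NTG and crRNA-13. Its interaction was -2.16 (SE 0.73), and -0.92 without nontransgenic crRNA-13 mouse 5. The same mice were highest for Rnf213 and Stat2 in these groups, mouse 5 and mouse 2 with crRNA-13 in the nontransgenic and C9-BACexp groups, and mouse 2 with NTG in the nontransgenic group. Ifit3, which binds viral RNA complexes, was at 0.236, 4.94, 0.896, 1.53 and 1.84 CPM in nontransgenic NTG mice, at 6.91, 2.15 and 22.4 with crRNA-13, and at medians of 0.556 (0.128 to 1.18) and 0.925 (0.265 to 4.73) in C9-BACexp mice with NTG and crRNA-13. The interaction of Ifit3 ran from -2.55 without nontransgenic NTG mouse 2 to -0.73 without nontransgenic NTG mouse 1. These 3 genes were chosen after their values were seen.

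Lists with related roles had lower values as well, by smaller amounts, but they are not independent of the interferon list or of each other. The list of sensors and signalling genes shares Stat2 and Oas3 with the interferon list. The MHC class I and reactive astrocyte lists have the same lowest value (-3.13). Of 39 sensors of nucleic acid and interferon signalling genes, 9 (23.1%) were lower at an unadjusted p under 0.05, against 6.15% of all genes, and none higher, with a median of -0.40. Without the factors 4 were lower, against 1.93% of all genes. The median was -0.052 without nontransgenic crRNA-13 mouse 5 and -0.90 without mouse 2 of that group. Among the 25 tested genes for antigen presentation on MHC class I, 5 (20%) were lower and 1 (4%) higher, against 6.15% and 4.31% of all genes. Their median was -0.51. Without the factors 2 were lower, against 1.93% of all genes, with a median of -0.43. H2-K1, a class I heavy chain with close paralogues among which reads can be split, was at 0.707, 8.48, 1.55, 5.36 and 3.91 CPM in nontransgenic NTG mice, at 21.1, 3.27 and 39.1 with crRNA-13, and at medians of 2.80 (1.44 to 5.02) and 6.98 (2.32 to 24) in C9-BACexp mice with NTG and crRNA-13. H2-K1 was chosen after its values were seen. The interaction was -1.09 for H2-K1 and -0.69 for H2-D1, another class I heavy chain of the list at a higher level. Without nontransgenic crRNA-13 mouse 5 and the factors these were -0.026 and 0.12. The median for MHC class I was -0.087 without nontransgenic crRNA-13 mouse 5 (0.027 without the factors as well) and -1.10 without mouse 2 of that group.

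Glial and immune lists lay on the same side. Of 26 microglial genes 4 (15.4%) were lower, against 6.15% of all genes, with a median of -0.58, and without the factors 0 were lower, with a median of -0.50. The median was -0.87 without nontransgenic NTG mouse 2 or C9-BACexp crRNA-13 mouse 2 and -0.39 without nontransgenic crRNA-13 mouse 5. Csf1r, the receptor that microglia need to survive, was at 2.22 to 5.38, 4.94 to 7.11, 2.26 to 4.94 and 3.06 to 5.90 CPM in nontransgenic NTG, nontransgenic crRNA-13, C9-BACexp NTG and C9-BACexp crRNA-13 mice. Summed CPM of the microglial list was 50.7 to 200, 100 to 153, 79.9 to 108 and 74.4 to 151 in these groups. Of 20 tested genes of reactive astrocytes 3 (15%) were lower, against 6.15% of all genes, with a median of -0.48. Without the factors 1 was lower, against 1.93% of all genes. Gfap, the intermediate filament of reactive astrocytes, was at 15.1, 3.36 and 21.1 CPM in the nontransgenic crRNA-13 mice against 1.24 to 6.54 in nontransgenic NTG mice and medians of 3.11 (2.05 to 4.60) and 4.45 (2.75 to 14.6) in C9-BACexp mice. The median of the reactive list became -1.22 without nontransgenic crRNA-13 mouse 2, -1.27 without C9-BACexp crRNA-13 mouse 2 and -0.18 without nontransgenic crRNA-13 mouse 5. Markers of astrocytes in general had a median of 0.094 (-0.12 without nontransgenic crRNA-13 mouse 1) with none of 24 at an unadjusted p under 0.05. Of the 26 markers of infiltrating blood cells 8 passed the filter on low counts, and their summed CPM did not exceed 11.4 in any library of the contrast. The part of microglia or reactive glia in the interferon values was not tested.

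**Figure D3:**
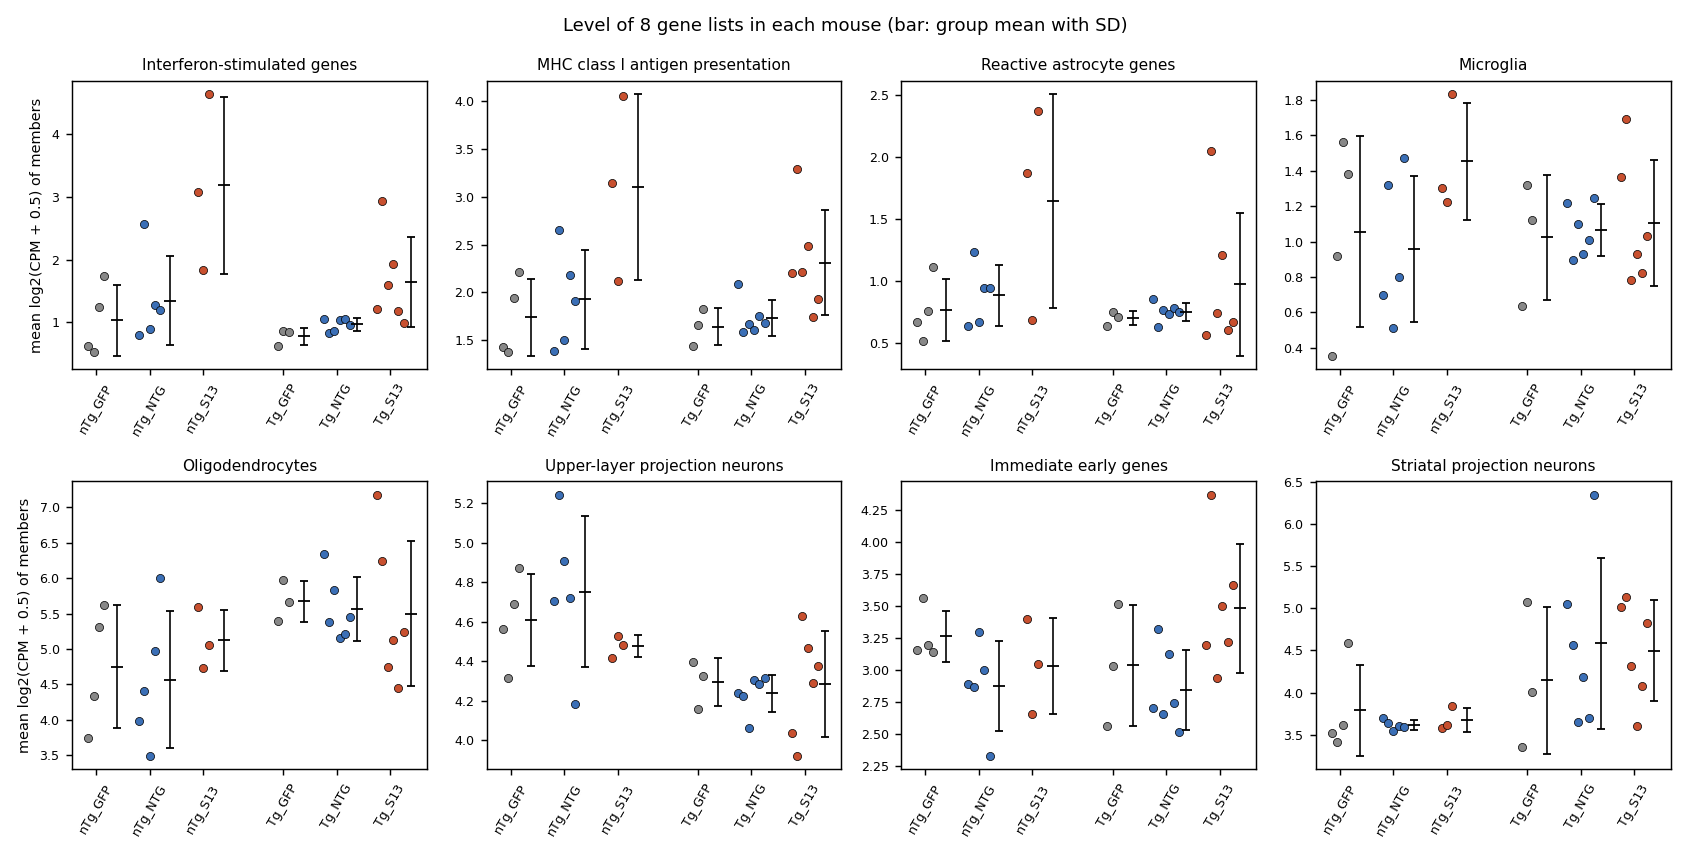
Mean log2(CPM + 0.5) of the tested members of 8 gene lists in each mouse, where grey marks EGFP-KASH only, blue NTG and red crRNA-13, and the bar marks a group's mean with its SD. Interferon-stimulated genes reached 4.64 in nontransgenic crRNA-13 mouse 5 and 2.94 in C9-BACexp crRNA-13 mouse 2, and lay between 0.83 and 1.06 in the 6 C9-BACexp NTG mice.

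Myelin genes had the largest share of members below the unadjusted threshold. Of 32 genes of mature oligodendrocytes 30 had a value below 0 and 19 (59.4%) were lower at an unadjusted p under 0.05, against 6.15% of all genes, with a median of -0.78. None was called by edgeR with no mouse left out. DESeq2 with 4 factors called 10 of the 32, all lower, among its 240 genes, and edgeR called 10 among the 80 without C9-BACexp crRNA-13 mouse 1, 7 among the 310 without nontransgenic crRNA-13 mouse 5 and C9-BACexp crRNA-13 mouse 2, 4 without nontransgenic NTG mouse 5, and 1 each without nontransgenic NTG mouse 4 and nontransgenic crRNA-13 mouse 2. Without the factors the median was -0.26 and 0 of the 32 had an unadjusted p under 0.05, so that the count depended on the factors. The median crRNA difference was -0.073 in C9-BACexp and 0.62 in nontransgenic mice, and the genotype difference was 1.08 under NTG and 0.37 under crRNA-13.

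Mbp, a structural protein of compact myelin, was at 232, 247, 194, 362 and 664 CPM in nontransgenic NTG mice and at 640, 407 and 344 with crRNA-13. In C9-BACexp mice it ran from 514 through 583 to 950 CPM with NTG and from 301 through 430 to 1704 with crRNA-13. Both nontransgenic groups overlapped, and 4 of the 6 C9-BACexp crRNA-13 mice were below every C9-BACexp NTG mouse while mice 1 and 2 were above all of them. The interaction was -0.73 (SE 0.20, 95% interval -1.15 to -0.31, adjusted p = 0.199, edgeR) and -0.35 without the factors. St18, a zinc finger factor, was at 56.8 to 340, 157 to 266, 213 to 528 and 152 to 759 CPM in nontransgenic NTG, nontransgenic crRNA-13, C9-BACexp NTG and C9-BACexp crRNA-13 mice, with an interaction of -1.04 (SE 0.26). Gjc3, a connexin of myelinating cells, was at 7.58 to 45.8, 20.7 to 35.3, 33.4 to 74.0 and 15.1 to 124 CPM in these groups, with an interaction of -1.03 (SE 0.22). Mbp, St18 and Gjc3 passed under DESeq2 with 4 factors (adjusted p = 0.0483, 0.0173 and 0.00486), in the edgeR fit without nontransgenic crRNA-13 mouse 5 and C9-BACexp crRNA-13 mouse 2 (0.0258, 0.048 and 0.0437) and in that without C9-BACexp crRNA-13 mouse 1 (0.0357, 0.0126 and 0.0185), where Mbp was at -1.03. Mbp was at -0.44 without nontransgenic crRNA-13 mouse 1. These 3 genes were chosen after their values were seen.

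Mean levels of the oligodendrocyte list on the log2(CPM + 0.5) scale were 3.98, 4.40, 3.49, 4.97 and 6.00 in nontransgenic NTG mice and 5.59, 4.73 and 5.06 with crRNA-13, and ran from 5.16 through 5.42 to 6.34 in C9-BACexp NTG and from 4.45 through 5.19 to 7.18 in C9-BACexp crRNA-13 mice. Summed CPM of the list ran from 1246 to 4891, 2535 to 3853, 2920 to 6073 and 1956 to 10050 in the same order. The list median was -1.13 without C9-BACexp crRNA-13 mouse 1 and also -1.13 without nontransgenic NTG mouse 5, which were the highest mice of their groups, and -0.48 without nontransgenic crRNA-13 mouse 1. Oligodendrocyte precursors had a median of -0.10, with 2 of 20 (10%) lower and 1 (5%) higher at an unadjusted p under 0.05, against 6.15% and 4.31% of all genes. The share of oligodendrocyte nuclei in each sort was not measured, and its part in these values was not tested.

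Neuronal lists were split by layer. Of 18 genes of upper-layer projection neurons 15 had a value above 0 and 7 (38.9%) were higher at an unadjusted p under 0.05, against 4.31% of all genes, with 1 lower and a median of 0.46. Without the factors 1 was higher and 1 lower, with a median of 0.55, so that this count too depended on the factors. The median was 0.27 without nontransgenic NTG mouse 2. Their median crRNA difference was 0.04 in C9-BACexp and -0.36 in nontransgenic mice. Of 24 genes of deep-layer neurons 18 had a value below 0 and 6 above. At an unadjusted p under 0.05, 7 (29.2%) were lower and 1 (4.17%) higher, against 6.15% and 4.31% of all genes. Without the factors 5 were lower and 1 higher, against 1.93% and 2.31% of all genes. The deep-layer median was -0.24 (-0.18 without the factors and -0.12 without nontransgenic crRNA-13 mouse 1). For 20 pan-neuronal and excitatory genes the median was 0.11. Of these, 4 (20%) were higher, against 4.31% of all genes, and 1 without the factors, against 2.31%. Their mean level stayed within 6.17 to 6.65 on the log2(CPM + 0.5) scale in the 20 libraries. None of these genes was called by edgeR with no mouse left out, and those named below passed in other fits where stated.

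Rorb (chr19:18907969-19088585, minus strand), a nuclear receptor of layer 4 neurons, was at 53, 133, 71.5, 80.6 and 83.3 CPM in nontransgenic NTG mice and at 44.5, 66.8 and 81.1 with crRNA-13. In C9-BACexp mice it ran from 28.2 through 38.2 to 45.5 CPM with NTG and from 31.4 through 58.9 to 70.5 with crRNA-13. All but 1 of the C9-BACexp crRNA-13 mice were above every C9-BACexp NTG mouse. The interaction was 1.01 (SE 0.31, 95% interval 0.36 to 1.66, adjusted p = 0.238, edgeR), and it passed at 1.31 without nontransgenic crRNA-13 mouse 5 and C9-BACexp crRNA-13 mouse 2 (adjusted p = 0.0291, edgeR). Cux2, a homeobox factor of upper layers, had 0.61 (SE 0.27), and 0.36 without nontransgenic crRNA-13 mouse 5.

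Among the deep-layer genes below 0 were Hs3st4 and Foxp2. Hs3st4, a heparan sulfate sulfotransferase, was at 1524, 742, 1523, 1248 and 1026 CPM in nontransgenic NTG mice and at 1987, 2706 and 1486 with crRNA-13, against medians of 1749 and 1719 in C9-BACexp NTG and crRNA-13 mice, with an interaction of -0.72 (SE 0.20). Foxp2, a forkhead factor of layer 6 neurons, was at 87.0 to 153, 152 to 164, 132 to 210 and 86.4 to 194 CPM in nontransgenic NTG, nontransgenic crRNA-13, C9-BACexp NTG and C9-BACexp crRNA-13 mice, with -0.76 (SE 0.20). Both passed under DESeq2 with 4 factors (adjusted p = 0.0496 for Hs3st4 and 0.0333 for Foxp2), and Hs3st4 also in the edgeR fit without the same 2 mice (-1.03, adjusted p = 0.0258). DESeq2 with 4 factors called 3 genes of the deep-layer list, and the other one, Etv1, was higher (0.62, adjusted p = 0.0375). Rorb, Cux2, Hs3st4, Foxp2 and Etv1 were chosen after their values were seen. Striatal projection neuron genes had a median of -0.36 that became 0.16 without C9-BACexp NTG mouse 6, in which Pde10a was at 6819 CPM against 999.9 to 2344 in the other mice of its group. The depth and width of the dissection were not recorded in the sources used here, and their part was not tested.

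Immediate early genes, which neurons switch on within minutes of activity, had 28 of 30 values above 0 and a median of 0.57. Only 1 (3.33%) was higher at an unadjusted p under 0.05, against 4.31% of all genes. Without the factors 4 were higher, against 2.31% of all genes. Their median crRNA difference was 0.70 in C9-BACexp and 0.21 in nontransgenic mice. Npas4, an activity-dependent transcription factor, ran from 17.3 through 24.9 to 41.5 CPM in C9-BACexp NTG and from 33.3 through 48.3 to 223 in C9-BACexp crRNA-13 mice, and was at 17.8, 17.7, 43.0, 29.5 and 18.4 in nontransgenic NTG and 48.9, 22.8 and 26.5 in nontransgenic crRNA-13 mice. Fos, chosen after its values were seen, was at 0.601 to 3.13, 0.56 to 4.86, 0.456 to 3.29 and 1.53 to 6.26 CPM in nontransgenic NTG, nontransgenic crRNA-13, C9-BACexp NTG and C9-BACexp crRNA-13 mice. The groups overlapped for both genes, and the list median was 0.31 without C9-BACexp crRNA-13 mouse 2, the mouse with 223 CPM of Npas4, and 0.88 without nontransgenic crRNA-13 mouse 1.

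The medians of lists tied to C9ORF72 biology and to RNA handling stayed near that of all genes. For 39 genes linked to ALS and FTD the median was 0.017. At an unadjusted p under 0.05, 3 (7.69%) were higher and 1 (2.56%) lower, against 4.31% and 6.15% of all genes. These were Tuba4a at 0.34, Tmem106b at 0.40, Stmn2 at 0.40 and Spg11 at -0.23. The 3 genes of the C9ORF72 protein complex had a median of 0.029, 59 autophagy and lysosome genes 0.0087, 57 nucleocytoplasmic transport genes 0.048 and 83 synaptic receptor and ion channel genes -0.03. Among the 83 synaptic genes 10 (12%) were higher and 4 (4.82%) lower, against 4.31% and 6.15% of all genes. These became 1 and 0 without the factors. Of 96 splicing genes 9 (9.38%) were lower, against 6.15% of all genes, and none higher, with a median of -0.061, and without the factors 0 were lower. The lowest value was that of Srsf4, a serine and arginine rich splicing factor (-0.44, SE 0.097), which passed under DESeq2 with 4 factors (adjusted p = 0.00518). Medians were 0.054 for cytosolic ribosomal proteins, -0.057 for the unfolded protein and integrated stress response, -0.0083 for p53 targets, 0.08 for heat shock genes and 0.15 for the nuclear-encoded respiratory chain. Of 60 respiratory chain genes 6 (10%) were higher and 1 (1.67%) lower, against 4.31% and 6.15% of all genes (0 and 0 without the factors). The remaining lists, for inhibitory neurons (-0.022), blood vessels (0.065), sterol and fatty acid synthesis (0.083), axon guidance and matrix (-0.016), complement and acute-phase genes (-0.57), infiltrating immune cells (-0.57), nuclear long non-coding RNAs (0.063) and sex-linked genes (0.25), held no gene called by edgeR with no mouse left out, while DESeq2 with 4 factors called 3 genes of the axon guidance and matrix list, Gpc6 higher and the semaphorin signalling genes Plxnb3 and Sema5b lower. At an unadjusted p under 0.05, 5 of 40 sterol and fatty acid genes (12.5%) were higher, against 4.31% of all genes. This became 1 without the factors, against 2.31%. In the axon guidance and matrix list 8 of 68 (11.8%) were lower and 1 (1.47%) higher, against 6.15% and 4.31%. These became 3 and 1 without the factors, against 1.93% and 2.31%. Complement genes had 3 of 19 (15.8%) lower, against 6.15%, and 1 without the factors, against 1.93%. The complement median was -0.14 without the factors and -0.26 without nontransgenic crRNA-13 mouse 5. Without that mouse the median of the 8 infiltrating cell genes turned to 2.01, and without C9-BACexp crRNA-13 mouse 3 that of the sex-linked genes turned to -0.76. The blood vessel median was 0.34 without nontransgenic crRNA-13 mouse 2 and -0.079 without mouse 1 of that group, and the ribosomal and respiratory chain medians were -0.11 and 0.0093 without nontransgenic NTG mouse 5.

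**Figure D4:**
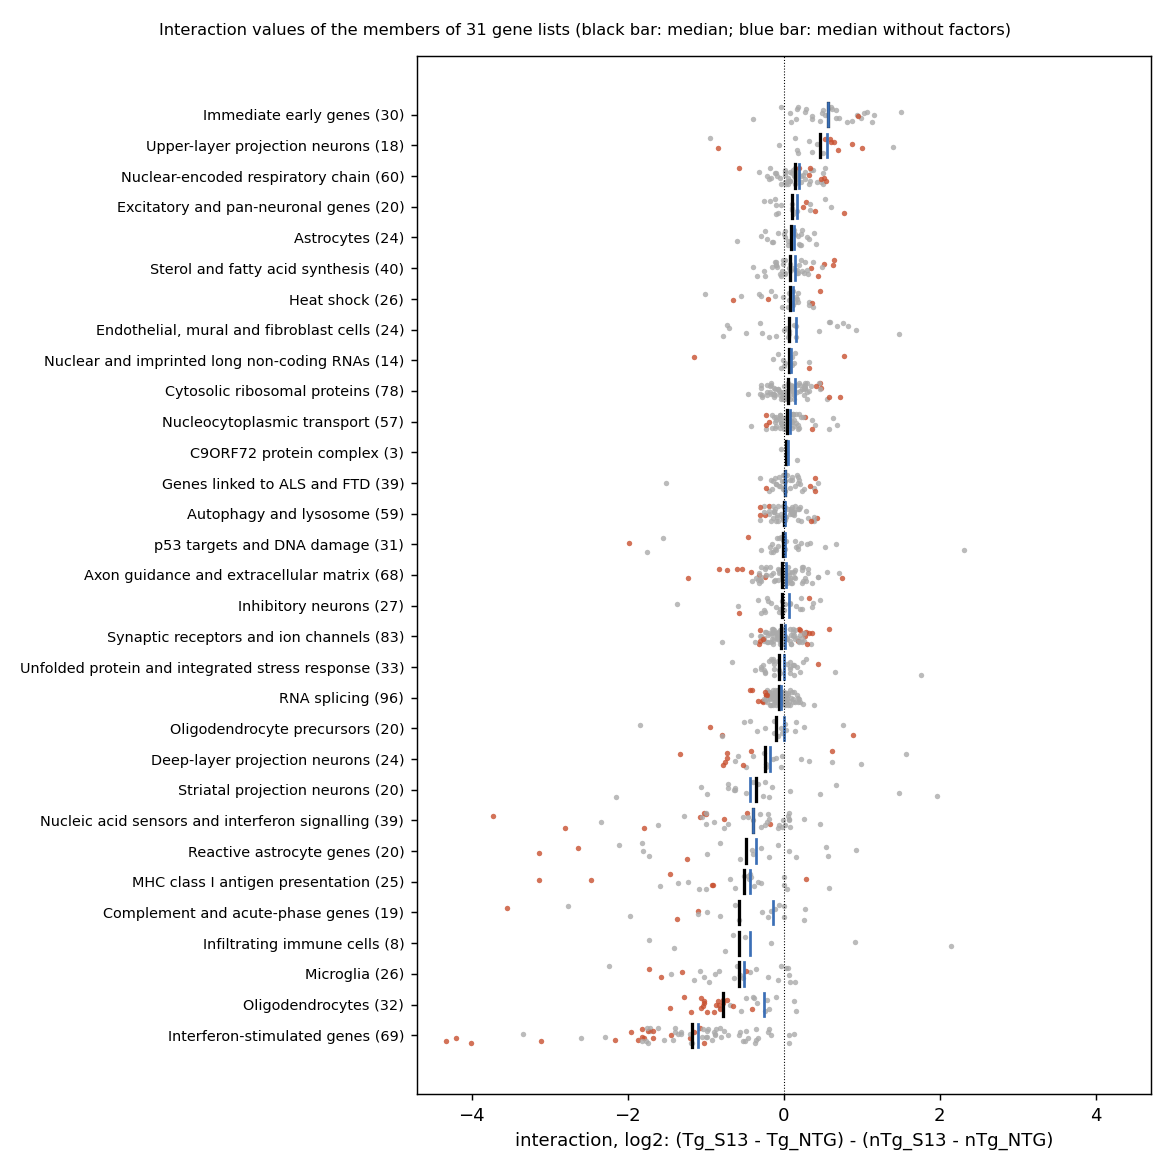
Interaction of each tested member of 31 gene lists (horizontal axis, log2), one list per row, with members at an unadjusted p under 0.05 in red and the list median as a black bar (blue without the factors). Interferon-stimulated genes (median -1.18) and oligodendrocyte genes (median -0.78) lie to the left, immediate early (0.57) and upper-layer genes (0.46) to the right.

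The targeted transcripts can be read in one genotype only, since human C9ORF72 was at 0 counts in 7 of the 8 nontransgenic libraries. In C9-BACexp mice V3 ran from 25.1 through 29.2 to 32.9 CPM with NTG and from 9.34 through 22.7 to 31.5 with crRNA-13, V1 from 20.8 through 22.9 to 29.1 and from 14.3 through 19.4 to 26.4, and V2 from 30.1 through 36.4 to 49.3 and from 30.0 through 46.7 to 48.0. On the log2(CPM + 0.5) scale the crRNA difference was -0.57 for V3 (two-sided exact permutation p = 0.0455, adjusted over the 3 transcripts 0.101), -0.34 for V1 (exact p = 0.0671, adjusted 0.101) and 0.18 for V2 (exact p = 0.240, adjusted 0.240). The groups overlapped for all 3 transcripts. The 12 V2 counts (0.327 CPM) and 4 V1 counts (0.109 CPM) in nontransgenic crRNA-13 mouse 5 stood beside a limit of 0.0833 CPM for a count of 0 at its depth.

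The 2 transcripts present in both genotypes that bear on the vectors and the target showed no interaction past the test. EGFP-KASH was at 15.2, 29.7, 65.1, 40.6 and 20.4 CPM in nontransgenic NTG mice, at 54.6, 22.6 and 45.5 with crRNA-13, and ran from 38.2 through 40.9 to 61.4 and from 24.9 through 39.4 to 110 in C9-BACexp mice with NTG and crRNA-13. Its interaction on the log2(CPM + 0.5) scale was -0.41 (two-sided exact permutation p = 0.529 over the 51744 exchanges of crRNA labels within genotypes, adjusted 0.529), and ran from -0.79 without nontransgenic crRNA-13 mouse 2 to -0.16 without mouse 1 of that group. Mouse C9orf72 (chr4:35191282-35226186, minus strand) was at 15.6 to 31.5, 15.3 to 23.9, 17.1 to 20.5 and 16.4 to 25.7 CPM in nontransgenic NTG, nontransgenic crRNA-13, C9-BACexp NTG and C9-BACexp crRNA-13 mice, with an interaction of 0.19 (exact p = 0.505, adjusted 0.529) and an edgeR interval from -0.22 to 0.56. Leaving out single mice moved it from 0.0033 without nontransgenic crRNA-13 mouse 1 to 0.32 without nontransgenic NTG mouse 3. Both permutation tests exchanged crRNA labels within genotypes, so they assumed no crRNA difference in either genotype. They are not exact for an equal difference in both. The level of the effector itself was not analysed here.

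**Figure D5:**
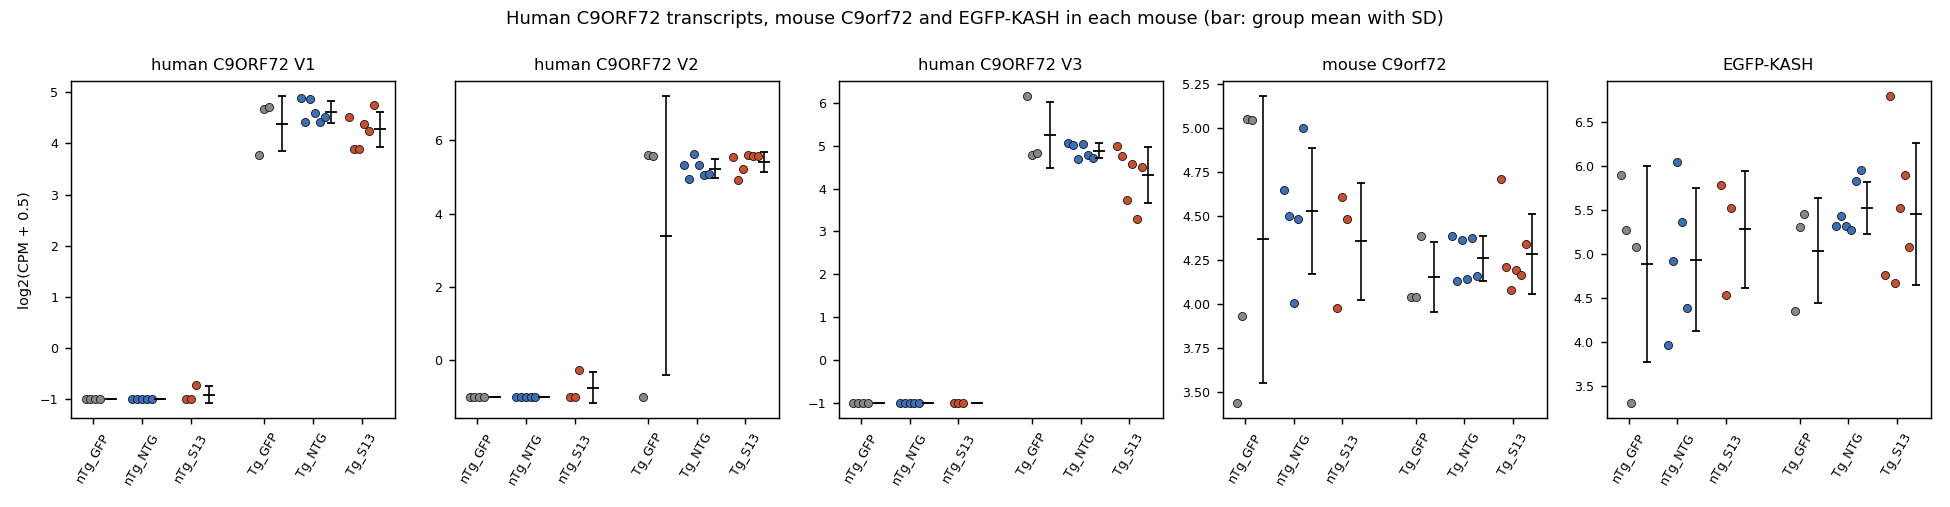
Levels (log2(CPM + 0.5)) in each mouse of the 3 human C9ORF72 variants, of the mouse gene and of EGFP-KASH, with colours and bars as in the plot of 8 genes and a level of 0 CPM at the bottom of the human panels. V3 was at 25.1 to 32.9 CPM in C9-BACexp NTG and 9.34 to 31.5 in C9-BACexp crRNA-13 mice, and mouse C9orf72 overlapped in all groups.

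Taking the mice with EGFP-KASH only in place of NTG asked a related but different question. These mice received no effector vector, so a difference from them holds the effector and its vector as well as the crRNA. The interaction of crRNA-13 against EGFP-KASH called 1 gene (0.00459%) with edgeR, the predicted gene Gm31298, and the interaction of NTG against EGFP-KASH called 0 (0%), with 2249 genes at an unadjusted p under 0.05, 0 calls by limma-trend and 157 by DESeq2 with the factors. Both share the EGFP-KASH mice, the first shares the crRNA-13 mice with the main contrast, and the second shares the NTG mice with it. For each gene the main interaction is the first minus the second, so these values split it and are not a separate check. For the interferon-stimulated genes the medians were -1.43 with crRNA-13 and -0.024 with NTG, for oligodendrocyte genes -0.62 and 0.058, for upper-layer genes 0.24 and -0.23 and for immediate early genes 0.88 and 0.22. The crRNA-13 count against EGFP-KASH was 0 without nontransgenic NTG mouse 1, 8 without nontransgenic NTG mouse 5 or crRNA-13 mouse 5, 9 without nontransgenic crRNA-13 mouse 2, 3 without C9-BACexp NTG mouse 6 or crRNA-13 mouse 1, and 20, 30 and 25 without C9-BACexp crRNA-13 mouse 2, 3 and 6.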

How the data were processed

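The authors sorted nuclei, built total RNA-seq libraries and quantified reads with Salmon 1.10.0 against spliced and unspliced mouse transcripts (Annotation Release 109), 3 human C9ORF72 transcripts and EGFP-KASH, with the GRCm39 genome as decoy. The deposited values are expected counts per gene, scaled by transcript length with tximport in R 4.3.1. They were rounded to whole numbers here.

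Genes with at least 10 counts in enough libraries for the smallest group and 15 in total were kept, all 27 libraries in 6 groups were fitted with edgeR 4.0.16 (R 4.3.3) after TMM normalization with 4 factors estimated from residuals, in place of the study's limma-trend fit with 4 RUVseq factors, whose variant is not given in the sources used here, and p-values were adjusted by Benjamini-Hochberg over all tested genes. A call needed an adjusted p under 0.05 and a fold over 1.2. CPM uses TMM library sizes. limma 3.58.1 and DESeq2 1.42.0 were alternatives. The fit was run on counts simulated around group means, without factors of unwanted variation or outlying mice. That run cannot show how the fit behaves where such factors or mice are present. Groups and replicates came from the labels. In fits with factors, p-values measure the spread between mice that is left after the factors. The factors were estimated from the same libraries and made the typical interval narrower. In fits without factors and in the permutation tests, p-values measure the full spread between mice. Named genes were the 5 with the smallest p in each direction, without predicted genes and at 1 CPM or more, plus EGFP-KASH, C9orf72 and the human transcripts. Others were chosen later, also where their paragraph does not say so. Among these, Csf1r, Gfap, Npas4 and Pde10a were in the 6 highest-level genes of their lists. Members and gene lists were chosen with earlier results of these data known. Single transcripts were tested by exact permutation of crRNA labels. A count of 0 allows up to 3 counts, and this limit covers counting error only. Gene positions are from GENCODE vM39 in GRCm39, and promoters from RefSeq (GRCm38.p6 table).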

Additional observations from a re-analysis of the deposited data

Results flagged for a closer look

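A sample was looked at again where its gap to the nearest mouse exceeded Dixon's 95% limit for its group. This was so in 13 of 141 groups, and chance gives about 1 in 20. The 3 nontransgenic crRNA-13 mice, mouse 5 among them, and the mice with EGFP-KASH only were not checked in this way. C9-BACexp crRNA-13 mouse 2 stood apart with the highest Npas4 (223 CPM) and Stat2 (83.5 CPM) and the lowest Rorb (31.4 CPM) of its group. C9-BACexp NTG mouse 1 had the highest Sorbs3 (48.1 CPM), Mobp (448 CPM), H2-D1 (12.5 CPM) and Serpina3n (3.34 CPM), and the highest mean level of MHC class I genes (2.09 on the log2(CPM + 0.5) scale). Nontransgenic NTG mouse 2 had the highest Oas2 (5.89 CPM), Csf1r (5.38 CPM) and interferon-stimulated level (2.57). Nontransgenic NTG mouse 3 had the lowest Fbxo33 (17.5 CPM), and C9-BACexp NTG mouse 3 the lowest upper-layer level (4.06). Gm14296 was the gene whose crRNA difference differed between the genotypes by the test of the interaction (adjusted p = 0.0198, edgeR), with counts in 3 of the 20 libraries.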

How the results depend on the processing

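The alternatives with the Xist level as a term and those leaving out 2 mice, or nontransgenic crRNA-13 mouse 5 without factors, were chosen after seeing the data. The 1 call of the interaction became 0 without factors, with 2 factors, under limma-trend with or without factors, in the 20 libraries alone with or without factors, under the replicate block with or without factors, with the Xist term without factors, and without nontransgenic crRNA-13 mouse 5 and factors; it became 2 without the filter or with the Xist term and 4 factors, 240 and 21 under DESeq2 with and without factors, and 310 with both mice left out, and leaving out single mice gave 1 to 80. Called list members, each gene counted once, numbered 0 in the main fit. They were 20 of the 240 calls under DESeq2 with 4 factors and 19 of the 310 with both mice left out. Fits without single mice gave 0 to 13, among 1 to 80 calls. The number of listed genes was not set beside these counts, so they cannot show an excess in the lists.
The crRNA count in C9-BACexp mice (1) became 0 in the same settings as the interaction count, 173 and 27 under DESeq2 with and without factors, 2 with both mice left out and 1 to 2 without single mice. The nontransgenic crRNA count (78) became 0 without factors, with 2 factors, under limma-trend without factors, in the 20 libraries alone and with the Xist term without factors, 29 under limma-trend with factors, 452 under DESeq2 with factors, 38 without the filter, 15 and 1 under the replicate block with and without factors, 177 with the Xist term, 4 without nontransgenic crRNA-13 mouse 5 and factors, 319 with both mice left out and 0 to 344 without single mice. The genotype count under NTG (2225) became 74 without factors, 87 (limma-trend), 563 (DESeq2), 81 (20 libraries), 5 (replicate block), 75 (Xist term) and 59 (without nontransgenic crRNA-13 mouse 5), all without factors. Under crRNA-13 it (34) became 7, 6, 7, 2, 3 and 14 without factors in the model, limma-trend, the 20 libraries, the replicate block, the Xist term and without that mouse, and with factors 5 (2 factors or 20 libraries), 425 (DESeq2), 73 (RLE), 11 (no filter), 68 (replicate block), 12 (Xist term), 10 (both mice left out) and 13 to 327 (single mice).
The crRNA-13 against EGFP-KASH interaction (1) became 0 without factors, with 2 factors, under limma-trend or the Xist term without factors, under the replicate block and without nontransgenic crRNA-13 mouse 5 and factors, 339 and 15 under DESeq2, 2 without the filter, 52 with both mice left out and 0 to 30 without single mice; that of NTG (0) became 157 and 16 under DESeq2, 1 without the filter and 0 to 1 without single mice.
Without nontransgenic crRNA-13 mouse 5 and factors the interferon median was 0.032 and the MHC class I median 0.027; single mice moved them from -1.88 to -0.35 and from -1.1 to -0.087, and the reactive astrocyte median from -1.27 to -0.18. V3 in C9-BACexp mice ran from -0.70 to -0.36 and V1 from -0.43 to -0.26 without single mice, with unadjusted exact p on both sides of 0.05 for each. Signs turned for Oas2 (0.56 with 2 factors, 1.47 without nontransgenic crRNA-13 mouse 5 and factors, -4.18 to 0.0082 without single mice), Irf7 (0.11 replicate block, 0.51 without that crRNA-13 mouse and factors, -2.64 to 0.13 without single mice), Serpina3n (0.12 replicate block) and H2-D1 (0.12 without that mouse and factors); the cause was not tested.
Mice with the same replicate number were little more alike than others: of 22 same-numbered pairs 3 correlated over 0.1 (r from -0.20 to 0.36, mean -0.012 against 0.0025 for other pairs). A weak correlation cannot exclude that the numbers pair the mice. Depth limits genes near the filter, and the 3 nontransgenic crRNA-13 mice limit every value.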
